A study of Mus musculus with 50 samples.

Results

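The genes described here are counted genes that share no base with a gene on the other strand. A gene was taken where its span, from its first to its last annotated exon base, overlapped no span of an opposite-strand gene in the count tables, on chromosomes 1 to 5, 7 to 10 and 12 to 19, and where its counts summed to 60 or more over the 6 RNA libraries. Of 37310 genes in the tables, 29764 lay on these 17 chromosomes and 21289 of those overlapped no opposite-strand gene. The count floor left 1202 genes, called isolated counted genes below, of which 1143 were protein-coding, 24 lincRNA, 17 pseudogenes, 14 processed transcripts, 2 miRNA and 2 miscellaneous RNA genes. The other 20087 isolated genes summed to under 60, and 12358 of them had no count in any library. The genes were thus chosen by their summed counts, so that their level is a description and supports nothing further.

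The cells were J1 mouse embryonic stem (ES) cells of strain 129S4/SvJae, grown on gelatin with 15% fetal bovine serum and LIF, with no other treatment. The RNA libraries compared wild type cells with the NSD1-/- lines KO1 and KO2, with 2 libraries in each of the 3 groups. The labels do not say how the lines were made, whether each is a clone, or whether the paired libraries stem from different cultures. Every p-value is thus a measure of spread among libraries that could be purely technical. The series holds 50 samples, and the 44 others were not analysed here.

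NSD1 is a histone methyltransferase that places the lower states of H3K36 methylation, a mark found between and along genes. In mammalian genomes neighbouring genes often lie tail to tail, and a polymerase that has passed the end of a gene keeps transcribing for a while before it lets go, so that RNA antisense to the next gene is made. Active promoters also fire in both directions, which gives upstream antisense RNA that is usually short-lived. In these tables an abundantly transcribed gene can have few counts: Actb, the beta-actin gene (chr5:143664794-143668433), itself an isolated counted gene, had 104 to 144 a library. The labels do not say whether the library kit marks strand, and this was not tested. Every count is taken here to be of RNA from the other strand than that of the named gene, and what each value means rests on that reading. For isolated genes no annotated gene lies on the other strand, and the tables do not tell whose transcripts were counted. A value given for a gene below is therefore a count at its exons and is not given as its messenger RNA.

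The closest neighbours lay within a stretch short enough to print. The 7 gaps below lie between isolated counted genes and an opposite-strand gene past their 3′ end, an arrangement called convergent, and the last lies between a pair of histone genes that start back to back, called divergent. Kifc2 was chosen as the convergent gene of highest count with a short gap, and the others because their neighbour is an abundantly transcribed gene or because they were called in a comparison below. These gaps were picked after the values were seen. Each is the whole gap, in mm9, on the strand of the first-named gene, and the sequences are those of the mm9 reference. Capitals mark the poly(A) signal AATAAA and the GU-rich element TGTGT or its reverse complement ACACA in convergent gaps, and the CCAAT box or its reverse complement ATTGG in the divergent gap. Matches that overlap each other were each counted, and the gaps after Kifc2 and Zfp513 hold neither AATAAA nor TGTGT on either strand.
Kifc2 to Foxh1, chr15:76498626-76498713, plus strand: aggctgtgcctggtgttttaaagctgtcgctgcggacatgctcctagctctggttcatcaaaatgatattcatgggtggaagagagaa
Cables2 to Rps21, chr2:179993151-179993244, minus strand: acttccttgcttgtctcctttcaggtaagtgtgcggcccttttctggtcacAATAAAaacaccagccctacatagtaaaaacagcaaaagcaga
Slc35b2 to Hsp90ab1, chr17:45704620-45704723, plus strand: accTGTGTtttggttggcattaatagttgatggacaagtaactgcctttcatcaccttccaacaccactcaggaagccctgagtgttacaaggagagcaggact
Lonp1 to Rpl36, chr17:56753667-56753723, minus strand: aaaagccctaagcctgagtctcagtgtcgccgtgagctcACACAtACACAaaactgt
Lama5 to Adrm1, chr2:179910992-179911077, minus strand: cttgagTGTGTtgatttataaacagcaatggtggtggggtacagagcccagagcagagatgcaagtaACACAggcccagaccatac
Zfp513 to Snx17, chr5:31501274-31501353, minus strand: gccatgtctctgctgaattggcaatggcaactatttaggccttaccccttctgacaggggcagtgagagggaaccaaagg
Eef2 to 4930442H23Rik, chr10:80645253-80645349, plus strand: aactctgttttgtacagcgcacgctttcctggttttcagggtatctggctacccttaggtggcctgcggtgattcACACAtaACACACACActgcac
Hist1h2ak to Hist1h2bn, chr13:21845777-21845991, minus strand: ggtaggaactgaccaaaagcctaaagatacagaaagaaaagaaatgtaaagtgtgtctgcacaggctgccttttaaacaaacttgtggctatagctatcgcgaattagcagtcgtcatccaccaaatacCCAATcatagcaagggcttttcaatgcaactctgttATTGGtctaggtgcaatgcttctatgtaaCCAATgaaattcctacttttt

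Motifs were counted on both strands in all gaps of 20 to 300 bases that hold no other gene, with a gap between 2 isolated genes counted for each. Of 316 such convergent gaps, 197 lie next to a gene under the floor, and the others next to an isolated counted gene. Among these others 7.56% held AATAAA, 5.88% held ATTAAA and 67.2% held TGTGT, and over all 316 the shares were 13.6%, 6.96% and 59.8%. Of 128 divergent gaps next to an isolated counted gene, 31.2% held CCAAT, 5.47% held TATAAA and 53.1% held GGGCGG, against 37.0%, 3.37% and 52.6% of all 1127 next to an isolated gene. A poly(A) signal normally lies inside the annotated transcript, a short distance before its end, so a gap without its letters says nothing on how either gene ends.

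Distance to the nearest opposite-strand gene had a median of 2400.5 bases for the isolated counted genes, with quartiles of 436 and 12785 and a maximum of 544601. For the isolated genes under the floor the median was 23573 bases. The nearest opposite-strand gene was convergent for 765 of the 1202 (63.6%) and divergent for 437, whereas 51.1% of the genes under the floor had a convergent nearest neighbour. Zfp622, a zinc finger gene at chr15:25914121-25928237, was the farthest from an opposite-strand gene. At the other end, Srrm2 (chr17:23940154-23961706), which codes for a splicing scaffold protein, and Tceb2 (chr17:23961707-23965958), which codes for elongin B, abut with 0 bases between their 3′ ends, and both reached the floor with 212 and 74 counts.

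The share of isolated genes that reached 60 counts was lower at larger distance, most of all on the convergent side. With a convergent neighbour under 1 kb away, 250 of 813 genes reached the floor (30.8%). The share was 14.6% at 1 to 5 kb (255 of 1746), 4.84% at 5 to 20 kb (140 of 2892), 2.64% at 20 to 100 kb (98 of 3709) and 1.17% at 100 kb and over (22 of 1877). With a divergent neighbour it was 11.2% under 1 kb (177 of 1580), 6.54% at 1 to 5 kb (64 of 979), 4.03% at 5 to 20 kb (91 of 2258), 2.40% at 20 to 100 kb (86 of 3588) and 1.03% at 100 kb and over (19 of 1847). The 2 sides lay apart below 5 kb and close together from 20 kb on. These shares describe the choice of genes and carry no test. Exon length moved with them: its median over isolated genes went from 2367 bases under 1 kb to 610 at 100 kb and over on the convergent side, and from 2520.5 to 617 on the divergent side, and its part in the shares was not tested. Once past the floor the level differed little, with median summed counts of 97 to 123.5 over the 10 groups of genes.

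**Figure D1:**
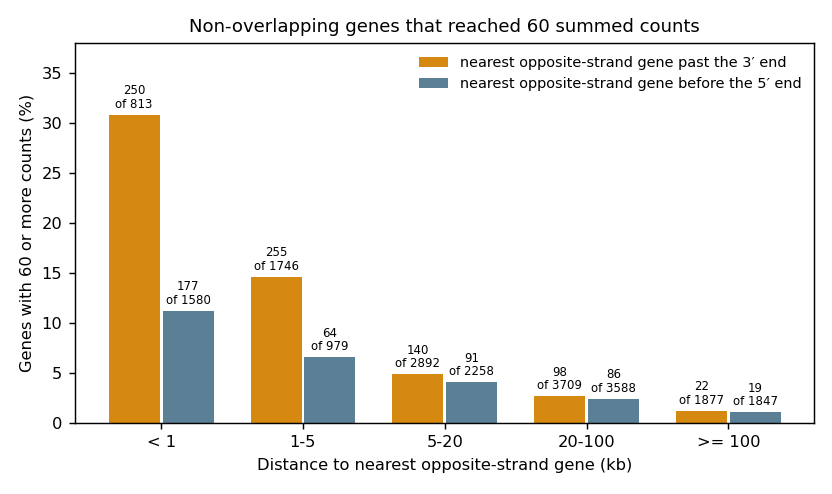
Share of isolated genes (percent, vertical axis) whose counts summed to 60 or more over 6 libraries, by distance to the nearest opposite-strand gene (horizontal axis, in kb); bars stand for the side of that gene (past the 3′ end, convergent, or before the 5′ end, divergent), with the numbers of genes above them. The convergent share goes from 30.8% under 1 kb to 1.17% at 100 kb and over, and the divergent share from 11.2% to 1.03%.

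At the edge of the floor, 17 isolated genes had exactly 60 counts and 21 had 59. The median summed count of the isolated counted genes was 112, with quartiles of 78 and 180.75, and per kb of exon it was 36.6. AY036118, a ribosomal RNA locus at chr17:39985048-39985772, is itself an isolated counted gene and held 2531838 counts. It took 32.3% to 37.2% of all counts in a library and was not called in the comparisons below as fitted. With scaling by the isolated counted genes alone, AY036118 was lower in KO1 than in wild type and KO2. There the quasi-likelihood test of edgeR gave adjusted p = 0.00521 and 0.00376. The libraries held 1150089 to 1285487 counts. In counts outside this locus, summed ES cell markers were at 218 and 228 in wild type, with 213 and 268 for KO1 and 205 and 228 for KO2. Of 10 fibroblast markers, Col1a2, Col3a1, Lox and Thy1 were at 0 in every library and the list summed to 85 to 89 counts in wild type, with 101 to 116 for KO1 and 81 to 95 for KO2. On the reading above these are counts of the other strand, so they are not used as a check of the cell type.

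After AY036118, Slc7a11, the cystine transporter of the plasma membrane (chr3:50168858-50247535), had the highest summed count, 3650, at 577 and 530 counts in wild type, with 611 and 651 for KO1 and 599 and 682 for KO2. Slc7a11 was not called in any comparison as fitted. Echdc2 (chr4:107838042-107851913), which codes for an enoyl-CoA hydratase domain protein, followed with 3210. Its libraries lay between 502 and 584, and it was not called in any comparison as fitted. Kifc2 (chr15:76490996-76498625), a kinesin motor gene whose 3′ end lies 88 bases from that of Foxh1, had 2767 counts, from 419 to 491 a library, also with no call. With scaling by the isolated counted genes alone Echdc2 was lower in KO1 than in KO2 (adjusted p = 0.000705), and Kifc2 was lower in KO1 than in wild type and KO2 (adjusted p = 0.00779 and 0.000758). Per kb of exon, the scale on which genes of unlike length can be set side by side, the ribosomal protein gene Rps26 (chr10:128061586-128063562) stood at 2779 summed counts, Echdc2 at 1404 and the histone gene Hist1h2ak at 998. Klf4 (chr4:55540013-55545347) and Sox2 (chr3:34548927-34551383), transcription factors of the pluripotency network, had 918 and 490 counts. Ribosomal protein, histone and predicted genes have near-identical copies, and values for them are uncertain where the counting could split fragments between copies.

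Read by function, the isolated counted genes drew unevenly on the lists. All 6 isolated glycolysis genes reached the floor, as did 12 of 13 translation factors, 36 of 54 ribosomal protein genes, 9 of 13 genes of H3K27 acetylation and Mediator, 7 of 12 general pluripotency genes, 8 of 15 naive pluripotency genes, 10 of 20 genes of class I histone deacetylase complexes and 27 of 63 histone genes. By contrast 4 of 73 homeobox genes, 6 of 90 growth factors and cytokines, 7 of 84 matrix and adhesion genes, 20 of 303 ion channels and transporters and 1 of 460 listed non-coding RNA genes did. Over all isolated genes the share was 5.65%. Of 16 isolated genes with a ribosomal protein gene convergent within 5 kb, 12 reached the floor, against 505 of 2559 (19.7%) with any convergent gene within 5 kb. All these counts follow from the choice by level and carry no test.

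The groups differed in the share of counts that fell on isolated counted genes. Outside AY036118, these genes took 4.39% and 4.51% of counts in wild type, with 5.08% in each KO1 library and 4.12% and 4.02% for KO2. Both KO1 libraries lay above wild type and both KO2 libraries below it, by more than the Wilson 95% half-width of 0.0420 to 0.0497 percentage points, which covers counting error only. The group means were 4.45% ± 0.0825 (SD, n = 2) in wild type, with 5.08% ± 0.00681 for KO1 and 4.07% ± 0.0741 for KO2, so that KO1 stood at 1.14 times and KO2 at 0.915 times wild type, and KO1 at 1.25 times KO2. An exact two-sided permutation test gave p = 0.333 for each of these 3 comparisons, the smallest value that 2 libraries against 2 allow, and p = 0.8 for both lines together, where the smallest is 0.133. Isolated genes under the floor, which the choice left out, took 1.882% and 2.045% in wild type. They took 2.29% and 2.34% in KO1 and 1.877% and 1.861% in KO2. KO1 was thus above both other groups there as well. Both KO2 libraries were below wild type, the first only just below the lower wild type library.

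The 36 ribosomal protein genes and 27 histone genes did not follow that order. Ribosomal protein genes took 0.173% and 0.197% of counts in wild type, with 0.184% and 0.211% for KO1 and 0.215% and 0.191% for KO2, and the 3 groups overlapped. Histone genes took 0.132% and 0.144% in wild type, with 0.130% and 0.137% for KO1 and 0.157% and 0.150% for KO2, where KO2 lay above the other libraries. The remaining 1138 genes took 4.08% and 4.16% in wild type, with 4.76% and 4.74% for KO1 and 3.75% and 3.68% for KO2, with no overlap between groups. No test was run on these sums.

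**Figure D2:**
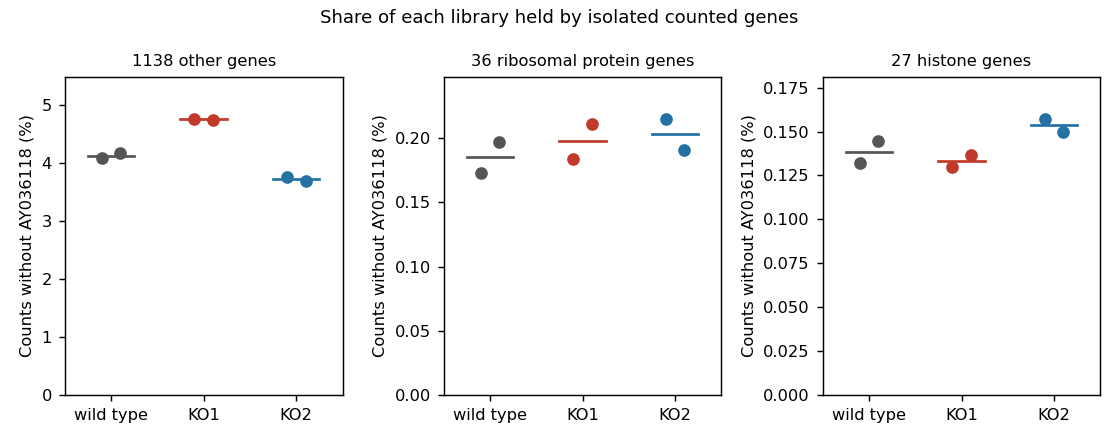
Share of counts outside the ribosomal RNA locus (percent, vertical axes from 0) in each library, by group, for the 1138 other, 36 ribosomal protein and 27 histone genes (1 panel each), where points are libraries and lines group means. The 1138 genes sit at 4.76% and 4.74% in KO1, above 4.08% and 4.16% in wild type and 3.75% and 3.68% in KO2, and the ribosomal protein genes overlap between groups.

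Nsd1, the gene targeted in both lines (chr13:55311143-55419686), is itself an isolated counted gene. Its nearest opposite-strand gene is Rab24, which codes for a small GTPase, 897 bases past its 3′ end. Nsd1 had 21 and 25 counts in wild type, with 55 and 38 for KO1 and 27 and 21 for KO2. KO1 was above the other groups, which overlapped. The log2 fold change was 0.94 ± 0.27 (SE) for KO1 against wild type (adjusted p = 0.023, the quasi-likelihood test of edgeR, Benjamini-Hochberg adjusted, used throughout) and 0.05 ± 0.31 for KO2 (adjusted p = 0.945). The counts are summed over the whole gene and, on the reading above, are of the other strand, so they are not used as a check of the deletion or the labels.

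In KO1 and KO2 as a pair against wild type, 15 isolated counted genes rose and 14 fell of the 1201 tested, 2.41% of them. Over all 5034 tested genes 6.62% were called, 2.72% higher and 3.89% lower. Etfdh alone did not pass the filter on low counts. The median log2 fold change was 0.01 over the isolated counted genes and -0.01 over all tested genes. The genes that rose include a signalling kinase, a synuclein and a metallothionein, and those that fell a cytokine, a growth cone protein and a homeobox factor. Both lines share the wild type libraries, so their values below are set side by side and are not independent. A gene that reaches 60 counts only through its higher group had to differ, and 8 of the 15 that rose and 2 of the 14 that fell would be under the floor at the level of their lower group. The 8 are Adcy9, Cd22, Clic4, Gm7284, Mocs3, Mt1, Slc9a3r2 and Src, and the 2 are Foxd1 and Impa2. Their place among these genes thus hangs on the difference itself.

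Sncg (chr14:35183460-35187975), which codes for gamma-synuclein, had 27 and 32 counts in wild type, with 71 and 72 for KO1 and 54 and 66 for KO2. All 4 knockout libraries were above wild type. It rose by a log2 fold change of 1.11 ± 0.20 in the lines together (adjusted p = 0.000313), with 1.21 in KO1 and 1.01 in KO2. Src (chr2:157244180-157297598), the founding member of a family of tyrosine kinases, had 5 and 7 counts in wild type, with 24 and 14 for KO1 and 30 and 17 for KO2, again with no overlap. Its log2 fold change was 1.76 ± 0.42 (adjusted p = 0.00691). Kbtbd11 (chr8:15011025-15033330), a Kelch repeat and BTB domain gene, rose from 8 and 13 counts to 34 and 39 in KO1 and 27 and 23 in KO2, by 1.48 ± 0.31 (adjusted p = 0.00228). Gm7284 (chr5:137473256-137475164), a predicted gene, went from 5 and 8 counts to 23 and 19 in KO1 and 24 and 18 in KO2, by 1.64 ± 0.38 (adjusted p = 0.00556). Gm7284 gave nearly the same value in each line, 1.61 in KO1 and 1.67 in KO2.

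Among the others that rose, Mt1 (chr8:96702989-96704225), a metal-binding stress protein gene, had 5 and 3 counts in wild type, with 9 and 13 for KO1 and 16 and 19 for KO2. It rose by 1.73 ± 0.48 (adjusted p = 0.0233), a call that held in 8 of 13 alternatives. KO2 was called (adjusted p = 0.00665) and KO1 was not (adjusted p = 0.128). Clic4, a chloride intracellular channel gene, Cd22, a B cell lectin gene, Adrb3, the beta-3 adrenergic receptor gene, and Ckb, the brain creatine kinase gene, rose by 1.65, 1.63, 0.85 and 0.74 on the log2 scale, with adjusted p from 0.0195 to 0.0482. The calls held in 5 of 13 alternatives for Clic4, 7 of 13 for Cd22, 9 of 14 for Adrb3 and 4 of 14 for Ckb. Wherever 13 alternatives are given for a call in the lines together, DESeq2 was not among those counted. The histone gene Hist1h2ak (chr13:21845264-21845776), whose divergent gap to Hist1h2bn is printed above, had 56 and 75 counts in wild type, with 94 and 93 for KO1 and 88 and 106 for KO2. It rose by 0.50 ± 0.15 (adjusted p = 0.0456) and was the only 1 of the 27 histone genes called in this comparison.

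Of the genes that fell, Basp1 (chr15:25293040-25343519), which codes for a membrane protein of growing nerve endings, had the highest counts: 246 and 237 in wild type, with 167 and 173 for KO1 and 100 and 103 for KO2. The 3 groups did not overlap. It fell by 0.92 ± 0.10 on the log2 scale in the lines together (adjusted p = 2.06e-07), by 0.57 in KO1 and by 1.26 in KO2. Il17d (chr14:58143666-58162002), a cytokine of the interleukin-17 family, had 31 and 39 counts in wild type, with 12 and 17 for KO1 and 19 and 11 for KO2, with no knockout library reaching wild type. It fell by 1.28 ± 0.27 (adjusted p = 0.00249). Gm5901 (chr7:112523612-112526801), a predicted gene that lies outside the rule for named genes and was picked after its values were seen, had 167 and 193 counts in wild type, with 125 and 148 for KO1 and 114 and 143 for KO2. It fell by 0.48 ± 0.12 (adjusted p = 0.00785), with -0.47 in KO1 and -0.50 in KO2.

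The homeobox gene Nkx6-3 (chr8:24263743-24269420) had 34 and 30 counts in wild type, with 31 and 14 for KO1 and 4 and 15 for KO2. It fell by 1.16 ± 0.31 in the lines together (adjusted p = 0.0189), while KO1 gave -0.57 with an adjusted p of 0.325. The call in the lines together held in 8 of 14 alternatives, and the raw counts of KO1 and wild type overlapped. Bax (chr7:52717065-52722268), an effector of apoptosis, fell by 1.00 ± 0.26 (adjusted p = 0.0158) from 33 and 29 counts to 20 and 16 in KO1 and 11 and 17 in KO2. Pspc1, a paraspeckle protein gene, Rsph1, a gene of the ciliary radial spoke, Adamts4, a protease gene of the extracellular matrix, and Gal3st3, a sulfotransferase gene, fell by 1.26, 1.08, 0.81 and 0.86. Their calls held in 10 of 13 alternatives for Pspc1, 7 of 13 for Rsph1, 8 of 14 for Adamts4 and 3 of 14 for Gal3st3. None of the 36 ribosomal protein genes, 12 translation factors, 8 naive pluripotency genes or 7 general pluripotency genes was called, where 2.41% of isolated counted genes were, and lists of this size are too small to show a difference from that share. A fit that treats all 4 knockout libraries as replicates of each other, in which the difference between lines counts as spread, called 0 isolated counted genes, with 53 at an unadjusted p under 0.05. DESeq2 called 4, with 31 at that unadjusted p.

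**Figure D3:**
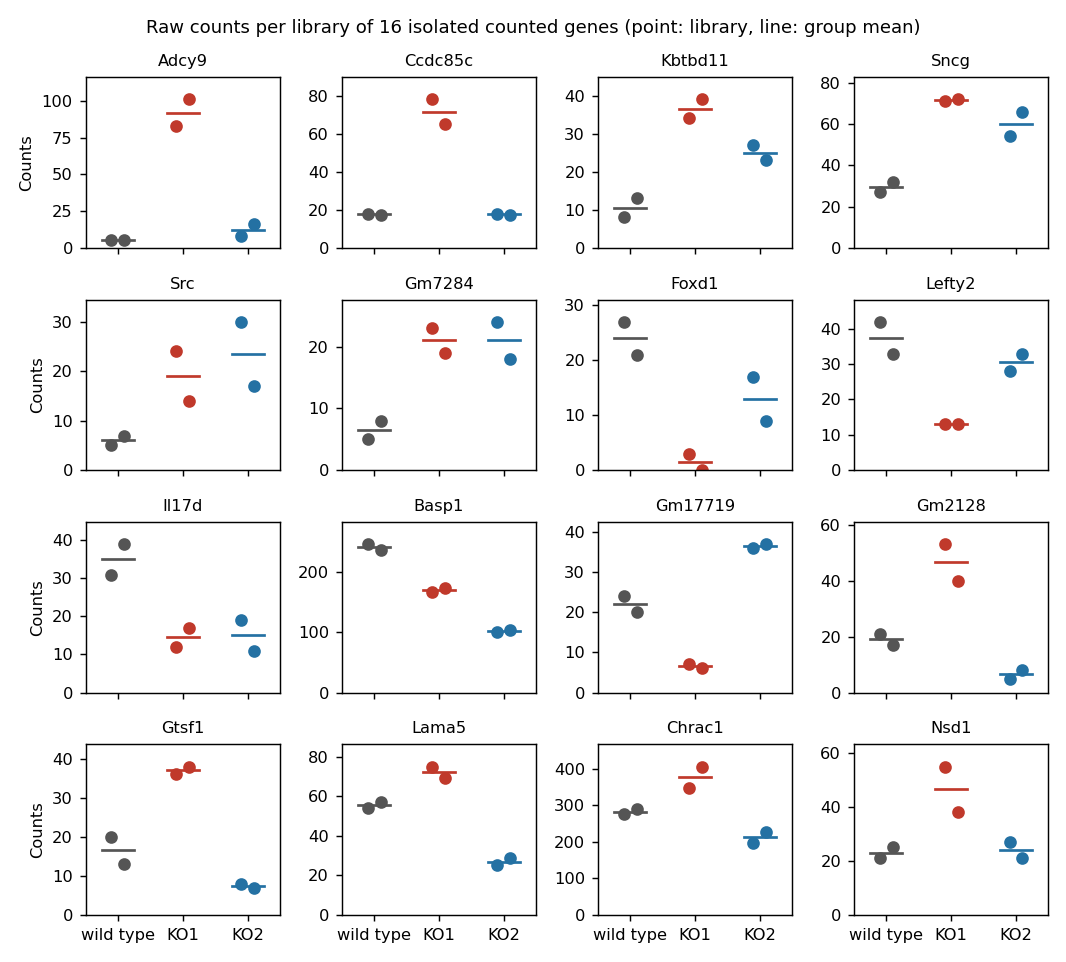
Counts in each library (vertical axis, 1 panel a gene) for 16 isolated counted genes, by group (wild type, KO1, KO2), where each point is a library and each line a group mean. Basp1 goes from 246 and 237 in wild type to 100 and 103 in KO2, and Adcy9 from 5 and 5 in wild type to 83 and 101 in KO1.

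In KO1 against wild type, 40 isolated counted genes rose and 12 fell (4.33% of 1201). Over all tested genes 9.79% were called, 3.46% higher and 6.34% lower. The median log2 fold change was 0.12 for the isolated counted genes and 0.00 for all. The direction of that balance depends on the scaling: with scaling factors from the isolated counted genes alone, 31 rose and 36 fell, and with total counts as library size 61 rose and 8 fell. The first scaling kept 31 of the 40 and 12 of the 12. Of the called genes, 12 of the 40 and 6 of the 12 would be under the floor at the level of their lower group. The 12 include Adcy9, Mocs3, Rpp25, Slc9a3r2, Gm7284 and Src. The 6 are Epha2, Foxd1, Gcn1l1, Gm17719, Prss16 and Pspc1. Many of the calls in KO1 were lost, and others came in, when 1 of the libraries compared was left out. Without the first or second wild type library the median of the isolated counted genes was 0.10 or 0.13. Without the first or second KO1 library it was 0.12 or 0.09.

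Adcy9 (chr16:4287529-4420498), which codes for an adenylate cyclase, gave the largest rise by the rule for named genes. It had 5 and 5 counts in wild type, with 83 and 101 for KO1 and 8 and 16 for KO2. KO1 stood far above all other libraries. The log2 fold change was 4.10 ± 0.33 for KO1 (adjusted p = 2.34e-10) and 1.23 ± 0.52 for KO2, which was not called (adjusted p = 0.152). Its nearest opposite-strand gene, Gm5766, lies 56322 bases away. Ccdc85c (chr12:109444555-109513627), a coiled-coil gene, had 18 and 17 counts in wild type, with 78 and 65 for KO1 and 18 and 17 for KO2, and rose by 1.96 ± 0.25 (adjusted p = 1.85e-06) with KO2 level with wild type. Its convergent neighbour Ccnk (chr12:109424580-109441569), a cyclin gene 2985 bases away that was picked after its values were seen, had 14 and 12 counts in wild type, with 33 and 34 for KO1 and 10 and 8 for KO2. Ccnk rose by 1.29 ± 0.31 in KO1 (adjusted p = 0.00577), so both genes of this tail-to-tail pair were called in the same line.

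Mocs3 (chr2:168056122-168058094), a molybdenum cofactor synthesis gene that starts 30 bases from the divergent gene Dpm1, had 7 and 11 counts in wild type, with 39 and 30 for KO1 and 13 and 12 for KO2. It rose by 1.86 ± 0.35 in KO1 (adjusted p = 0.000365). Slc9a3r2, a scaffold gene of membrane transporters, and Rpp25, a gene of the RNase P and MRP complexes, rose by 1.97 ± 0.40 and 1.80 ± 0.44, with adjusted p of 0.000978 and 0.00664. Zfp513 (chr5:31501354-31504676), a zinc finger gene whose 80-base gap to Snx17 is printed above, had 44 and 31 counts in wild type, with 77 and 69 for KO1 and 40 and 50 for KO2. It rose by 0.89 ± 0.21 in KO1 (adjusted p = 0.00523) and was picked after its values were seen. Star, the steroidogenic acute regulatory gene, rose by 0.37 ± 0.11 from 172 and 174 counts to 242 and 227 (adjusted p = 0.0298), and Nlrp12 (chr7:3221511-3249741), a NOD-like receptor gene, from 240 and 273 to 373 and 303, by 0.33 ± 0.10 (adjusted p = 0.0351). The convergent neighbour of Nlrp12, 668 bases away, is Mir295, a member of the main miRNA cluster of ES cells. Neither Star nor Nlrp12 was called with scaling by the isolated counted genes alone (adjusted p = 0.157 and 0.196).

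Foxd1 (chr13:99124200-99126660), a forkhead transcription factor gene, had 27 and 21 counts in wild type, with 3 and 0 for KO1 and 17 and 9 for KO2. KO1 was below every other library. With 3 counts in KO1 the ratio to wild type was 0.0596, with an exact 95% interval of 0.0119 to 0.185 that covers counting error only (adjusted p = 5.94e-05). Lefty2 (chr1:182823239-182829234), a Nodal antagonist expressed in ES cells, had 42 and 33 counts in wild type, with 13 and 13 for KO1 and 28 and 33 for KO2. It fell by 1.59 ± 0.31 in KO1 (adjusted p = 0.000661), and KO2 gave -0.31 ± 0.26 (adjusted p = 0.523). Gm17719 (chr7:116094268-116105049), a predicted gene, had 24 and 20 counts in wild type, with 7 and 6 for KO1 and 36 and 37 for KO2, which put KO1 below and KO2 above wild type. It fell by 1.81 ± 0.40 in KO1 (adjusted p = 0.0025). Prss16, a thymic serine protease gene, fell by 1.84 ± 0.46 (adjusted p = 0.00778), and Hoxc13, a homeobox gene, by 0.61 ± 0.20 (adjusted p = 0.0469). Epha2, an ephrin receptor gene with 10 and 17 counts in wild type, with 3 and 6 for KO1 and 14 and 14 for KO2, fell by 1.62 ± 0.53 (adjusted p = 0.0481). With total counts as library size, Epha2 and Hoxc13 were not called (adjusted p = 0.0654 and 0.104). The Epha2 call in KO1 held in 4 of the 12 alternatives counted for it.

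In KO2 against wild type the balance was the other way: 11 isolated counted genes rose and 29 fell (3.33%). Over all tested genes 8.98% were called, 5.01% higher and 3.97% lower. The median log2 fold change was -0.09 for the isolated counted genes and -0.01 for all. This balance too turned with the scaling: factors from the isolated counted genes alone gave 26 higher and 17 lower, and total counts gave 10 higher and 35 lower. The first scaling kept 11 of the 11 and 17 of the 29. At the level of their lower group, 6 of the 11 and 7 of the 29 would be under the floor. The 6 are Cd22, Clic4, Gm7284, Mt1, Nhedc1 and Src. The 7 are Gm10800, Gm2128, Mmp23, Nkx6-3, Rbm15, Rsph1 and Taf6l. Many of the calls in KO2 were lost, and others came in, when 1 of the libraries compared was left out. Without the first or second wild type library the median of the isolated counted genes was -0.10 or -0.05. Without the first or second KO2 library it was -0.11 or -0.07.

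Lama5 (chr2:179911078-179960564), which codes for a laminin chain of basement membranes and lies 86 bases from the proteasome gene Adrm1, had 54 and 57 counts in wild type, with 75 and 69 for KO1 and 25 and 29 for KO2. The 3 groups did not overlap. It fell by 1.05 ± 0.23 in KO2 (adjusted p = 0.00272), while KO1 gave 0.31 ± 0.19 (adjusted p = 0.355). Adamts4 and Mmp23, protease genes of the same matrix list, fell by 0.97 ± 0.28 and 1.32 ± 0.38 in KO2, with adjusted p of 0.0231 and 0.027. That makes 3 of the 7 matrix and adhesion genes, where 3.97% of all tested genes were lower, and no test was run on the list. Rbm15 (chr3:107128863-107136591), an RNA-binding gene of the m6A writer complex, had 18 and 19 counts in wild type, with 22 and 19 for KO1 and 6 and 6 for KO2. It fell by 1.61 ± 0.43 (adjusted p = 0.015). Taf6l, a gene of a histone acetyltransferase complex, had 13 and 16 counts in wild type, with 16 and 16 for KO1 and 6 and 1 for KO2, and fell by 2.02 ± 0.57 (adjusted p = 0.0217). Gm10800, a predicted gene, fell by 1.76 ± 0.38 from 26 and 25 counts to 5 and 10 (adjusted p = 0.00255). These calls in KO2 held in 8 of 13 alternatives for Rbm15, 9 of 13 for Taf6l and 12 of 13 for Gm10800.

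Ndufb10 (chr17:24859005-24861423), a subunit gene of respiratory complex I that lies 130 bases from the ribosomal protein gene Rps2, was picked after its values were seen. It had 81 and 77 counts in wild type, with 79 and 54 for KO1 and 54 and 48 for KO2, and fell by 0.64 ± 0.20 in KO2 (adjusted p = 0.0433, or 0.0851 with scaling by the isolated counted genes). Of the genes that rose in KO2, Mt1, Src, Cd22 and Gm7284 had log2 fold changes of 2.09, 1.94, 1.75 and 1.67. Hist1h2ak rose by 0.56 ± 0.17 (adjusted p = 0.0436, or 0.0624 with total counts), and Nhedc1, a sodium/hydrogen exchanger gene, by 1.52 ± 0.47 from 6 and 7 counts to 26 and 12 (adjusted p = 0.0408). The Nhedc1 call held in 7 of 13 alternatives.

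More isolated counted genes were called between the lines than in either line against wild type: 114 isolated counted genes were higher in KO1 than in KO2 and 18 were lower, 11.0% of 1201. Over all tested genes 19.3% were called, 7.93% higher and 11.4% lower. The median log2 difference was 0.21 for the isolated counted genes and 0.02 for all tested genes. Scaling by the isolated counted genes alone moved the median of all genes by -0.21 and gave 54 higher and 70 lower, with 54 of the 114 and 18 of the 18 kept. Total counts moved it by 0.14 and gave 178 higher and 10 lower. In KO1 and KO2 against wild type, scaling by the isolated counted genes moved the median of all genes by -0.11 and 0.10. The balance of directions is therefore relative to the scaling. Of the called genes, 35 of the 114 and 7 of the 18 would be under the floor at the level of their lower group. The 35 include Ccnk, Gm10800, Gm2128, Gtsf1, Mmp23, Phf1, Rbm15 and Taf6l. The 7 are Eomes, Epha2, Foxd1, Gcn1l1, Gm17719, Snrpb and Ucp2. Many of the calls between the lines were lost, and others came in, when 1 of the libraries compared was left out. Without the first or second KO1 library the median of the isolated counted genes was 0.21 or 0.17. Without the first or second KO2 library it was 0.24 or 0.18.

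Chrac1 (chr15:72920822-72927984), which codes for a histone-fold subunit of chromatin remodelling complexes, moved in opposite directions in the lines. It had 275 and 289 counts in wild type, with 348 and 406 for KO1 and 198 and 226 for KO2, with no overlap between groups. The log2 fold change was 0.35 ± 0.10 in KO1 (adjusted p = 0.0193) and -0.42 ± 0.11 in KO2 (adjusted p = 0.0109), and KO1 exceeded KO2 by 0.77 ± 0.10 (adjusted p = 1.6e-06). The difference between the lines was called under each scaling, and neither line against wild type was with scaling by the isolated counted genes (adjusted p = 0.128 and 0.0652). Gm2128 (chr7:48410845-48413666), a predicted gene, also moved in opposite directions: it had 21 and 17 counts in wild type, with 53 and 40 for KO1 and 5 and 8 for KO2. It rose by 1.22 ± 0.28 in KO1 and fell by 1.54 ± 0.43 in KO2, a difference of 2.76 ± 0.35 (adjusted p = 6.86e-07). Gtsf1 (chr15:103232836-103260901), a germ cell gene of the piRNA pathway, had 20 and 13 counts in wild type, with 36 and 38 for KO1 and 8 and 7 for KO2. It differed between the lines by 2.23 ± 0.36 (adjusted p = 2.24e-05), rose by 1.09 ± 0.30 in KO1 (adjusted p = 0.0147) and gave -1.13 ± 0.42 in KO2 (adjusted p = 0.0977).

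Lama5 was higher in KO1 than in KO2 by 1.35 ± 0.22 (adjusted p = 2.76e-05), and Adamts8 and Mmp23 by 1.12 and 1.22. That makes 3 of 7 genes of the matrix and adhesion list, where 19.3% of all tested genes were called in either direction, and no list was tested. Ep300 (chr15:81415781-81482507), the histone acetyltransferase gene, had 22 and 29 counts in wild type, with 26 and 33 for KO1 and 14 and 12 for KO2. It was higher in KO1 than in KO2 by 1.12 ± 0.33 (adjusted p = 0.0156) and not called in either line against wild type. Nsd1 and Phf1, the latter a reader of methylated H3K36, were higher in KO1 by 0.89 ± 0.27 and 1.41 ± 0.41 (adjusted p = 0.0187 and 0.0147), 2 of the 3 genes of the H3K36 list. Of the 20 genes listed as ion channels and transporters, 4 were also higher, by 0.94 to 1.17: Slc37a4, Slc25a29, Slc38a2 and the scaffold gene Slc9a3r2. That share is close to the 19.3% of all tested genes called in either direction, of which 7.93% were higher. With scaling by the isolated counted genes, Lama5, Adamts8, Ep300, Phf1 and Slc37a4 were still called, while Mmp23, Nsd1, Slc25a29, Slc38a2 and Slc9a3r2 were not, with adjusted p from 0.0542 to 0.115.

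Fewer genes were lower in KO1 than in KO2. Sap18 (chr14:58417017-58423817), a subunit gene of the Sin3 deacetylase complex, had 40 and 51 counts in wild type, with 29 and 31 for KO1 and 59 and 80 for KO2. KO1 was below and KO2 above wild type, with a difference of -1.26 ± 0.23 between the lines (adjusted p = 0.000107) and no call in either line. H2afx (chr9:44142798-44144154), a histone variant gene that marks DNA breaks, had 148 and 171 counts in wild type, with 118 and 152 for KO1 and 202 and 207 for KO2, a difference of -0.66 ± 0.13 (adjusted p = 0.000538). Rps15, a ribosomal protein gene, differed by -0.70 ± 0.20 (adjusted p = 0.0111). Eomes and Cdx1, transcription factor genes of trophoblast and mesoderm, differed by -1.39 ± 0.47 and -1.08 ± 0.38, at 71 and 95 summed counts. With total counts as library size Sap18, H2afx and Rps15 were still called, and Eomes and Cdx1 were not (adjusted p = 0.0593 and 0.0744).

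The ribosomal protein and histone genes lay apart from the other isolated counted genes in this comparison. Over the 36 ribosomal protein genes the median difference was -0.25, with 0 higher and 2 lower, and over the 27 histone genes it was -0.37, with 0 higher and 2 lower (H2afx and Hist2h3b), beside 0.21 over all isolated counted genes. Over all tested genes 11.4% were lower. With scaling by the isolated counted genes 7 ribosomal protein and 11 histone genes were lower, with total counts 1 of each, and none was higher under either. Hist2h3b lost its call with total counts (adjusted p = 0.0707). Both medians stayed below 0 with scaling by the isolated counted genes, at -0.46 and -0.59, and with total counts, at -0.11 and -0.23. In KO1 and KO2 against wild type the ribosomal protein medians were -0.03 and 0.17, of which the first turned to 0.06 under total counts, and the histone medians were -0.27 and 0.19. No test was run on these lists, and the counting could split fragments between gene copies.

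Distance moved with the difference between the lines on the convergent side. The median log2 difference of KO1 over KO2 was 0.34 for genes with a convergent neighbour under 1 kb away, 0.25 at 1 to 5 kb, 0.16 at 5 to 20 kb, 0.15 at 20 to 100 kb and 0.20 at 100 kb and over. On the divergent side it was 0.21, 0.02, 0.14, 0.19 and -0.03, with no such order. Of 249 tested genes with a convergent neighbour under 1 kb away, 36 were called higher in KO1 and 3 lower, and at 1 to 5 kb 28 of 255 were higher and 1 lower, where 7.93% of all tested genes were higher and 11.4% lower. With scaling by the isolated counted genes these counts were 16 and 9 under 1 kb, and 13 and 13 at 1 to 5 kb. Under that scaling the convergent medians became 0.13 under 1 kb and -0.06 at 20 to 100 kb, so that the sign beyond 5 kb turned. In KO1 against wild type the convergent medians were 0.15, 0.14, 0.05, 0.14 and 0.16, and those of KO2 were -0.15, -0.12, -0.09, -0.00 and -0.03. No test was run over the genes of a distance class.

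**Figure D4:**
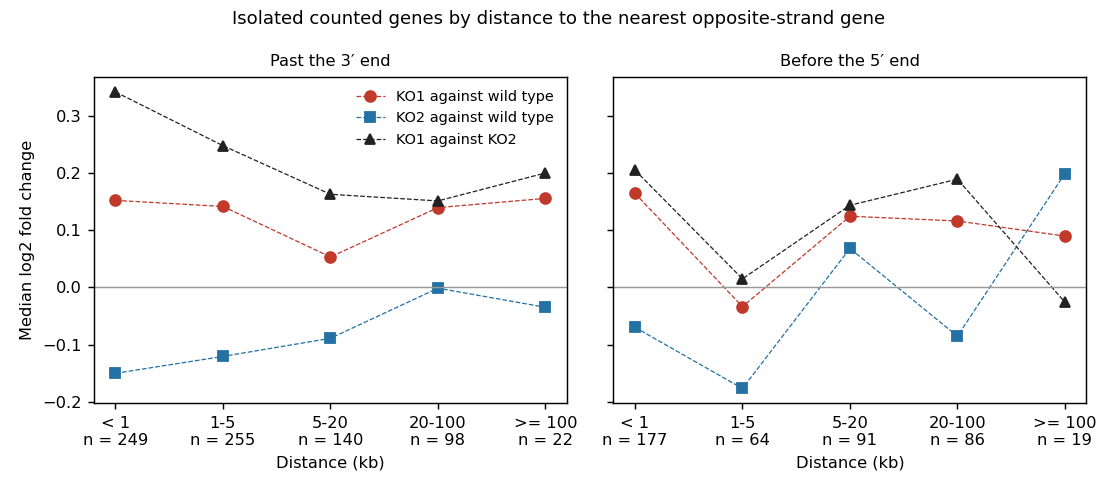
Median log2 fold change (vertical axis) of isolated counted genes in KO1 against wild type, KO2 against wild type and KO1 against KO2 (points joined by lines), by distance to the nearest opposite-strand gene (horizontal axis, kb), with convergent neighbours left and divergent ones right. On the convergent side KO1 over KO2 goes from 0.34 under 1 kb to 0.15 at 20 to 100 kb.

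Several of the short convergent gaps printed above belong to genes that differed between the lines. Lonp1 (chr17:56753724-56766326), the mitochondrial protease gene 57 bases from the ribosomal protein gene Rpl36, had 116 and 98 counts in wild type, with 135 and 125 for KO1 and 84 and 90 for KO2. KO2 was below and KO1 above wild type, and the lines differed by 0.52 ± 0.15 (adjusted p = 0.0145). Rpl36 itself, on the other side of the gap, had 42 and 40, 34 and 37, and 47 and 49 counts, a difference of -0.49 ± 0.23 that was not called (adjusted p = 0.135). Slc35b2, a Golgi transporter gene 104 bases from the chaperone gene Hsp90ab1, differed by 0.46 ± 0.15 (adjusted p = 0.027), and Cables2, a cyclin-dependent kinase adaptor gene 94 bases from Rps21, by 0.46 ± 0.16 (adjusted p = 0.0437). Their partners Hsp90ab1 and Rps21 gave -0.18 ± 0.18 and -0.35 ± 0.41, with no call. Eef2, the translation elongation factor gene, gave -0.31 ± 0.15 (adjusted p = 0.161), and Kifc2 -0.17 ± 0.08 (adjusted p = 0.145). With scaling by the isolated counted genes Eef2, Kifc2 and Rpl36 were called lower in KO1 than in KO2 (adjusted p = 0.00714, 0.000758 and 0.0208). Adrm1, opposite Lama5, gave 0.23 ± 0.28 (adjusted p = 0.62). Lonp1, Slc35b2 and Cables2 were picked after their values were seen, and none of them was called in either line against wild type. Under the same scaling none of the 3 was called between the lines (adjusted p from 0.167 to 0.296).

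Where both genes of a pair are isolated counted genes and each is the other's nearest opposite-strand gene, their values can be set against each other. There were 76 such convergent pairs, with a median gap of 941.5 bases, and 21 divergent pairs, with a median gap of 440. Across the convergent pairs the Pearson correlation of the partners' log2 fold changes was 0.25 in KO1 and -0.02 in KO2, and across the divergent pairs 0.22 and 0.16. Spearman's rho was 0.11 and -0.03 for the convergent pairs and 0.27 and 0.06 for the divergent ones. Partners share the libraries and their scaling, and pairs are not replicates. Both partners were called in 1 convergent pair in KO1, Ccdc85c and Ccnk, and in none of the others in KO1 or KO2. A single partner was called in 4 convergent pairs in KO1, 5 in KO2 and 15 between the lines. Of single isolated counted genes 4.33% were called in KO1 and 11.0% between the lines, beside 9.79% and 19.3% of all tested genes. No test was run on the number of pairs. Between the lines both were called in 2 convergent pairs, Ccdc85c with Ccnk and the next. Mylpf (chr7:134355122-134357812), a myosin light chain gene, and Sept1 (chr7:134357961-134362012), a septin gene, are such a pair with 148 bases between them. Picked after their values were seen, they were higher in KO1 than in KO2 by 0.74 ± 0.22 and 0.83 ± 0.29 (adjusted p = 0.0138 and 0.0427), a call lost in both with scaling by the isolated counted genes (adjusted p = 0.0806 and 0.132).

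Genes that do overlap an opposite-strand gene were called more often, at 7.52% in the lines together, 12.6% in KO1, 10.2% in KO2 and 23.8% between the lines, and had higher counts. By count class the isolated share was the lower in every class of each comparison, and the gap was smaller for some classes and not for others. In KO1, 2.94% of isolated counted genes and 3.26% of overlapping genes were called at 60 to under 120 counts. The shares were 4.49% and 8.01% at 120 to under 240, and 8.46% and 8.99% at 240 to under 480. At 480 counts and over the shares were 8.70% and 22.1%. That class has no upper bound and holds 69 isolated and 949 overlapping genes, so counts within it need not be alike. Between the lines they were 7.43% and 10.6% at 60 to under 120 counts and 30.4% and 35.7% at 480 and over. The median log2 difference between the lines was 0.23 for isolated and 0.23 for overlapping genes at 60 to under 120 counts, 0.20 and 0.11 at 120 to under 240, 0.16 and 0.04 at 240 to under 480, and 0.19 and -0.09 at 480 and over. In the lowest class, which holds 646 of the 1201 isolated counted genes, the 2 sets thus had the same median between the lines. Against wild type the medians of that class differed, at 0.16 for isolated and 0.05 for overlapping genes in KO1. In KO2 they were -0.08 and -0.17. These are descriptions of shares of genes, and no test was run on them.

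**Figure D5:**
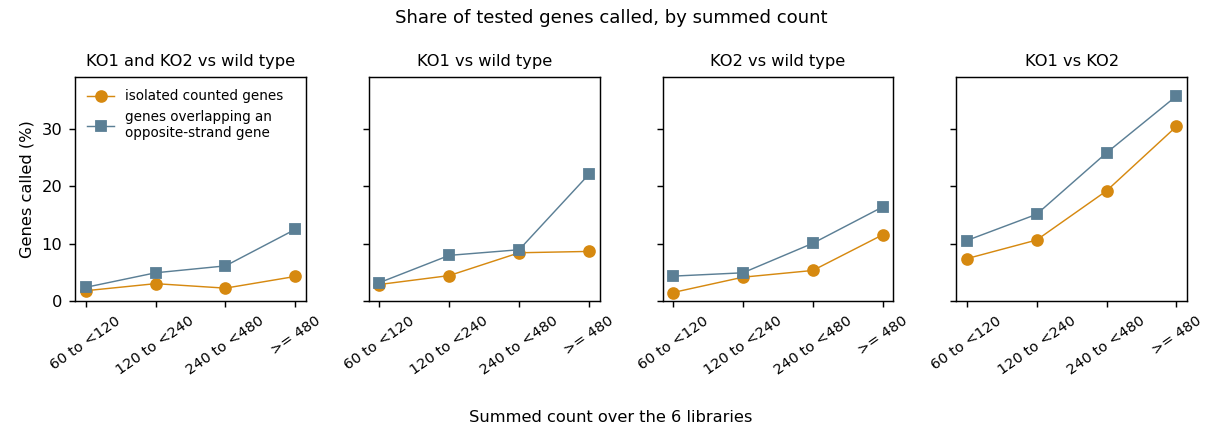
Share of tested genes called (percent, vertical axis) in each comparison, for isolated counted genes and for genes overlapping an opposite-strand gene, by summed count class (horizontal axis), with 1 panel a comparison. In KO1 against wild type at 480 counts and over, 8.70% of isolated and 22.1% of overlapping genes were called. That class has no upper bound, so counts within it need not be alike.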

How the data were processed

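RNA was sequenced from 6 libraries, 2 in each of 3 groups. The deposited values are raw counts per gene. Per the file headers, the authors used featureCounts 2.0.1 to count fragments over the exons of GENCODE mouse version 1 (mm9), with the strand setting at 1. STAR 2.5.4b and Trim Galore 0.6.4 are among the tools in the submitters' processing notes. Spans and strands came from the tables and equalled those of the annotation for all 37310 genes. Distance is the number of bases between 2 spans.

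The tests used edgeR 4.0.16 (R 4.3.3). Genes were filtered by filterByExpr (minimum count 10), scaled by TMM and fitted by robust quasi-likelihood, with all 6 libraries and 3 group means. This left 5034 genes, 3 residual degrees of freedom and a biological coefficient of variation of 4.46%. A gene was called at a Benjamini-Hochberg adjusted p under 0.05 over all tested genes. Errors on log2 fold changes are standard errors of the fit. The fit was tested on simulated data.

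Genes were named by a rule: of the called genes that reach 5 CPM on average in some group and whose groups do not overlap, the 12 largest changes each way in the lines together, the 6 largest in each line and the 5 largest between the lines. The rule also took the 10 highest by count and by count per kb, the 5 nearest and the 5 farthest from an opposite-strand gene, and up to 4 called genes from each of 39 lists, or 2 abundant ones where none was called. The genes and lists were chosen with earlier results of these data known. Alternatives were DESeq2 1.42.0, no filter, other scalings and library sizes, a replicate block, each library left out, a test against a log2 change of 0.5, other groupings of libraries and stricter definitions of the genes. The scalings by the isolated counted genes alone and by total counts, both without AY036118, were added after seeing the data.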

Additional observations from a re-analysis of the deposited data

Results flagged for a closer look

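The values here are log2 differences of KO1 over KO2 for named genes that the report describes for a comparison with wild type, and each stood out because the lines differed in the quasi-likelihood test of edgeR, Benjamini-Hochberg adjusted. Higher in KO1 were Adcy9 by 2.87 (adjusted p = 2.4e-09), Ccdc85c by 1.96 (adjusted p = 6.86e-07), Gm2128 by 2.76 (adjusted p = 6.86e-07), Gm10800 by 1.90 (adjusted p = 0.000355), Basp1 by 0.69 (adjusted p = 0.00032), Mocs3 by 1.40 (adjusted p = 0.00199), Rbm15 by 1.69 (adjusted p = 0.00433), Taf6l by 2.09 (adjusted p = 0.00737) and Slc9a3r2 by 1.05 (adjusted p = 0.0305). Lower in KO1 were Foxd1 at -3.07 (adjusted p = 0.0028), Gm17719 at -2.52 (adjusted p = 3.75e-06), Lefty2 at -1.28 (adjusted p = 0.00494) and Epha2 at -1.67 (adjusted p = 0.0238). Foxd1 rests on 3 counts in KO1, with a ratio of KO1 to KO2 of 0.111 (exact 95% interval 0.0215 to 0.362, counting error only), and its fitted difference depends on the prior count. For Basp1 both lines were below wild type and KO2 lay lower. Gm2128, Gm10800, Rbm15, Taf6l, Foxd1, Gm17719 and Epha2 would be under the count floor at the level of their lower line, so they had to differ. The cause of these differences was not tested. With 2 libraries a group, and no statement in the labels on how the lines were made, line and library cannot be told apart from other differences between these cells.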

How the results depend on the processing

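Counts of isolated counted genes called are given in the order both lines together, KO1, KO2 and KO1 against KO2, where the analysis as described gave 29, 52, 40 and 132. DESeq2 gave 4, 7, 3 and 19, and the test against a log2 change of 0.5 gave 3, 9, 2 and 22. Genes at least 5 kb from an opposite-strand gene gave 15, 23, 18 and 44, and genes with 120 or more counts gave 17, 33 and 84 for both lines, KO1 and KO1 against KO2, in each case from fewer genes. Without the filter on low counts KO1 gave 33 and KO1 against KO2 gave 87. The 4 knockout libraries as a single group gave 0, and KO2 with only the libraries compared gave 26. Leaving out each library in turn gave 15 to 32, 21 to 69, 20 to 37 and 49 to 144. These are totals of each such fit and can include genes not called in the analysis as described. For both lines together, many of the calls as described were lost when 1 wild type or 1 KO1 library was left out. With the replicate block the counts were 27, 54, 37 and 121. Same-numbered libraries did not deviate together (correlations 0.009, -0.008 and -0.037), so the numbers were not taken to pair them. Calls of Adcy9, Ccdc85c and Gm17719 in KO1 and between the lines held under every alternative counted for them. So did those of Gm2128 and Gtsf1 between the lines, and of Foxd1, Kbtbd11, Lefty2, Mocs3 and Slc9a3r2 in KO1. DESeq2 was not among the alternatives counted for Gm17719 and Gtsf1 between the lines, or for Foxd1, Mocs3 and Slc9a3r2 in KO1. Depth limits all of this: the median isolated counted gene had 17 to 21 counts a library, and the median standard error of a log2 fold change in the lines together was 0.30.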
